A study of Mus musculus with 6 samples.

Results

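Aminoacyl-tRNA synthetases join each amino acid to its transfer RNA (tRNA), the step that supplies ribosomes with building blocks. Cytosolic and mitochondrial ribosomes are served by separate sets of these enzymes, nearly all from separate nuclear genes, and the mitochondrial set supplies the translation of respiratory chain subunits encoded in mitochondrial DNA. Several cytosolic synthetase genes are known targets of ATF4, the transcription factor induced by amino acid shortage and by other stresses that act through phosphorylated eIF2α. The genes described here are 36 of the 30323 genes in the count table, chosen by name: 20 encode cytosolic enzymes and 16 encode mitochondrial enzymes. Earlier results of these data were known when the 36 were chosen, so the shares called among them are not independent evidence. All 36 were found, and all 36 passed the filter on low counts that left 14697 genes for testing.

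RNA was sequenced from whole mouse hearts at embryonic day 9.5. The 3 MCKO libraries come from hearts with a myocardial knockout of Cdc42, a small GTPase of the cytoskeleton and cell polarity, and carry the genotype label CDC-42 KO. The 3 control libraries carry the genotype label C57BL/6 ctrl. Neither the Cre driver and alleles nor the litters and sex of the embryos are stated in the labels. Whether each library is a separate heart or litter is not stated either, so the p-values measure the spread between these libraries, which may be partly technical. Whole hearts mix myocardium, endocardium, blood and epicardium, and in such samples fewer cells of a type cannot be told apart from less RNA per cell.

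The libraries held 23883877 to 34246477 estimated counts in the MCKO group and 19256840 to 32169289 in the control group. Levels below are CPM, counts scaled to a common library size, after TMM scaling, which corrects each library total for its composition; 3 counts correspond to 0.0894 to 0.153 CPM. Cdc42 itself (ENSMUSG00000006699, mm10 chromosome 4, 137319696 to 137357720) had 253, 245 and 245 CPM in the MCKO libraries, against 390.4, 371 and 413 CPM in the control libraries (log2 fold change -0.66, SE 0.047, adjusted p = 2.93e-06). The groups did not overlap. Genes encoded in mitochondrial DNA took 1.31 to 1.38% of all counts in MCKO libraries and 3.13 to 3.55% in control libraries. For the marker counts that follow, 29.3% of all tested genes were called higher and 29.1% lower, at an adjusted p under 0.05 as defined below. Cardiomyocyte markers were abundant in both groups. Their summed level was 41058 to 42650 CPM in MCKO and 32795 to 36150 CPM in control libraries, and 5 of 10 were called higher. Primitive red cell markers summed to 6621 to 7088 CPM in MCKO and 3023 to 3341 CPM in control libraries, with 8 of 8 higher, and endothelial markers to 1056 to 1079 CPM in MCKO and 863 to 870.0 CPM in control libraries, with 7 of 8 higher and 1 lower. Epicardial markers summed to 72.5 to 73.9 CPM in MCKO and 174 to 184 CPM in control libraries, with 5 of 6 lower. As sums, markers of myocardium, blood and vessels thus took a larger part of the MCKO libraries, and markers of the epicardium a smaller part. In the cardiomyocyte list Myh7 had the widest gap, at a mean of 10356 CPM in MCKO and 6203 CPM in control hearts. Tnni1, Myh6, Actn2, Nkx2-5 and Ttn were not called. Of markers from outside the heart, the neural list summed to 400.0 to 404 CPM in MCKO and 315 to 351 CPM in control libraries (3 of 4 tested genes higher, 1 lower). Nes made up most of that sum, and without it the neural list stood at 9.40 to 10.4 CPM in MCKO and 21.2 to 26.7 CPM in control libraries. The endoderm list summed to 29.0 to 31.3 CPM in MCKO and 19.2 to 20.5 CPM in control libraries (4 of 7 tested genes higher, 3 lower), and without Sox17, which endothelium also expresses, to 10.6 to 11.9 CPM in MCKO and 14.9 to 16.7 CPM in control libraries. The higher neural and endoderm sums in MCKO libraries rest on Nes and on Sox17. The lower sums without them rest in turn on Tubb3 and Afp. Tubb3 averaged 4.49 CPM in MCKO and 22.9 CPM in control hearts, and Afp 0.103 CPM in MCKO and 11.2 CPM in control hearts. The liver markers Afp, Hnf4a and Ttr were lower, while the endoderm markers Epcam, Foxa2 and Cldn6 and the neural markers Sox2 and Pax6 were higher. Leukocyte markers stood at 1.86 to 2.71 CPM in MCKO and 3.53 to 4.12 CPM in control libraries. Of their 3 tested genes 1, Csf1r, was lower, near the background share, and Adgre1 was at 0 in all MCKO libraries. Without Csf1r the leukocyte sums overlapped, at 0.983 to 1.46 CPM in MCKO and 1.23 to 1.67 CPM in control libraries. The marker shifts accompany every result below, and their part in it was not tested.

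Genes for cytosolic enzymes were mostly higher in MCKO hearts, and genes for mitochondrial enzymes were mostly lower or not called. A gene is called here when the adjusted p of edgeR's quasi-likelihood test, corrected over all 14697 genes by the Benjamini-Hochberg method, is under 0.05. Of the 20 cytosolic genes, 12 were called higher (60.0%), 6 lower (30.0%) and 2 not, with a median log2 fold change of 0.33 and a range of -0.61 to 1.33. Of the 16 mitochondrial genes, 1 was called higher (6.25%), 9 lower (56.3%) and 6 not, with a median of -0.23 and a range of -0.77 to 0.39. The background was broad: 58.4% of all tested genes were called, 29.3% higher and 29.1% lower, with a median log2 fold change of 0.00057 over all of them. The cytosolic share called lower and the mitochondrial share called in either direction (62.5%) lay near that background. The cytosolic share called higher and the mitochondrial share called lower lay above the background shares of their direction, and the mitochondrial share called higher lay below it.

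**Figure D1:**
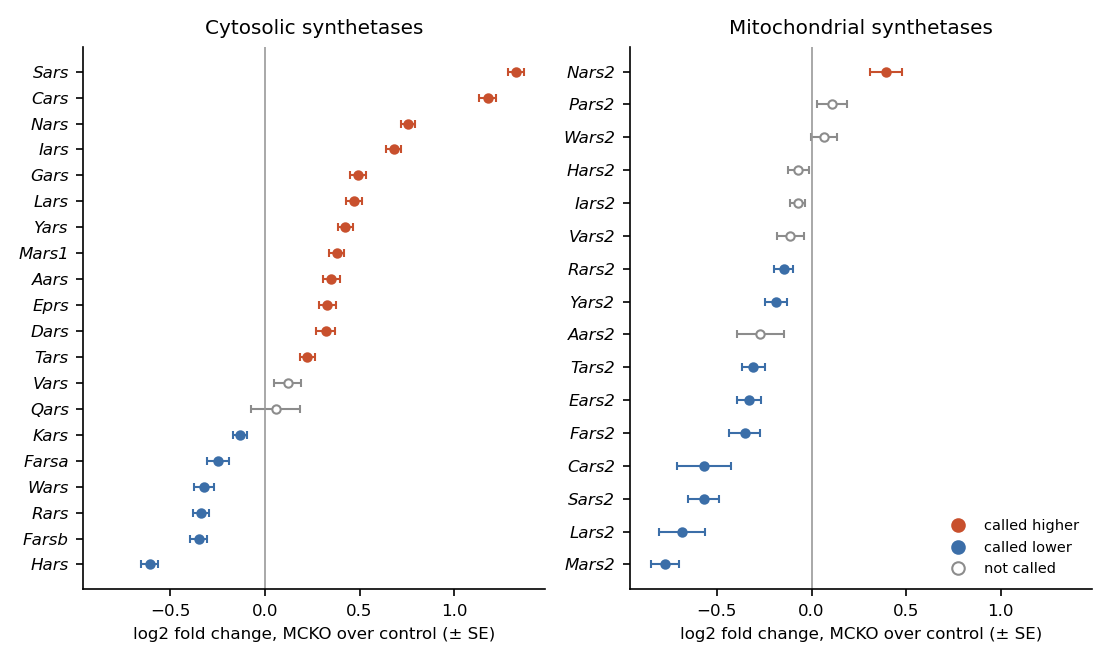
Log2 fold change of each synthetase gene, MCKO over control (x axis, points with SE bars), for 20 cytosolic (left) and 16 mitochondrial genes (right), each panel sorted by value. Filled points are genes called higher or lower at an adjusted p under 0.05 and open points are not called; 12 cytosolic genes and 1 mitochondrial gene, Nars2, were called higher.

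Changes of at least 1.5-fold were fewer. Among cytosolic genes, Sars, Cars, Nars and Iars were called and at least 1.5-fold higher, 4 of 20 where 13.8% of all tested genes met that rule. Hars alone among cytosolic genes, and Mars2 and Lars2 among mitochondrial genes, were called and at least 1.5-fold lower, where 9.14% of all tested genes met that rule. The 3 libraries of each group did not overlap for 13 members that were higher in MCKO hearts and for 16 that were lower, and they overlapped for 7. Groups failed to overlap for 64.7% of all tested genes.

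Seryl-tRNA synthetase (Sars, ENSMUSG00000068739, mm10 chromosome 3, 108424865 to 108445209, minus strand) had the highest fold change of the 36. The enzyme charges serine tRNA and also the selenocysteine tRNA, and in zebrafish its loss disturbs blood vessel growth. Sars had 273, 272 and 279 CPM in the MCKO libraries, against 114, 110.1 and 104 CPM in the control libraries (log2 fold change 1.33, SE 0.044, adjusted p = 2.46e-08). Every MCKO library exceeded every control library, by a fitted 2.51-fold, and Sars ranked 653 of all tested genes from the highest fold change down. Cysteinyl-tRNA synthetase (Cars, ENSMUSG00000010755, chromosome 7, 143557230 to 143600090, minus strand) had 106, 109 and 109.8 CPM in the MCKO libraries, against 49.0, 48.8 and 46.1 CPM in the control libraries (log2 fold change 1.18, SE 0.045, adjusted p = 6.65e-08). The groups were far apart again, at a fitted 2.26-fold.

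Asparaginyl-tRNA synthetase (Nars) had 287, 280.4 and 285 CPM in the MCKO libraries, against 173, 163 and 169 CPM in the control libraries (log2 fold change 0.76, SE 0.039, adjusted p = 4.36e-07). Isoleucyl-tRNA synthetase (Iars), a member of the multisynthetase complex, had 351, 349 and 339.8 CPM in the MCKO libraries, against 220.1, 210.1 and 219 CPM in the control libraries (log2 fold change 0.68, SE 0.039, adjusted p = 7.36e-07). In both genes the lowest MCKO library lay well above the highest control library. Gars, whose gene gives the glycyl-tRNA synthetase of both cytosol and mitochondria, had 367, 362 and 373 CPM in the MCKO libraries, against 270.3, 247 and 265 CPM in the control libraries (log2 fold change 0.49, SE 0.044, adjusted p = 1.26e-05). Its control libraries spread by 4.58% (coefficient of variation) and its MCKO libraries by 1.51%, and the groups did not overlap.

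The other cytosolic genes called higher moved by less. Lars, the leucyl-tRNA synthetase that also acts as a leucine sensor for mTORC1, had 191, 187 and 195 CPM in the MCKO libraries, against 142, 132 and 140.3 CPM in the control libraries (log2 fold change 0.47, SE 0.044, adjusted p = 1.72e-05). Yars, the tyrosyl-tRNA synthetase, had 120.4, 121 and 126 CPM in the MCKO libraries, against 92.8, 89.8 and 90.9 CPM in the control libraries (log2 fold change 0.42, SE 0.041, adjusted p = 2.15e-05). Neither gene's groups overlapped. Mars1, the methionyl-tRNA synthetase that charges initiator and elongator tRNA, had 151, 151 and 155 CPM in the MCKO libraries, against 117, 120.2 and 114 CPM in the control libraries (log2 fold change 0.38, SE 0.040, adjusted p = 4.11e-05). Its exons overlap those of Ddit3 on the opposite strand, and Ddit3, the stress transcription factor CHOP, had 52.9, 53.8 and 56.2 CPM in the MCKO libraries, against 11.5, 9.76 and 10.1 CPM in the control libraries (log2 fold change 2.38, SE 0.070, adjusted p = 1.19e-08). The library kit keeps strand, but whether the counting used it is not stated, so the Mars1 value is uncertain to that extent.

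Aars (alanine) had 249, 251 and 267 CPM in the MCKO libraries, against 205, 203 and 193 CPM in the control libraries (log2 fold change 0.35, SE 0.044, adjusted p = 0.000116). The annotation holds Exosc6, an exosome subunit, inside Aars exons on the same strand, so reads from the shared stretch cannot be told apart. No counts of Exosc6 were available here. The Aars values may therefore include reads of Exosc6, which could not be checked. Eprs, a bifunctional enzyme that charges both glutamic acid and proline tRNA, averaged 398 ± 2.13 CPM in MCKO hearts and 317 ± 17.3 CPM in control hearts (SD, n = 3 each; log2 fold change 0.33, SE 0.046, adjusted p = 0.000227). Dars (aspartate) averaged 156 ± 3.66 CPM in MCKO hearts and 124 ± 7.26 CPM in control hearts, and Tars (threonine) 133 ± 2.75 CPM in MCKO hearts and 114 ± 1.96 CPM in control hearts (SD, n = 3 each). Their log2 fold changes were 0.32 (adjusted p = 0.000469) for Dars and 0.22 (adjusted p = 0.00105) for Tars by edgeR's test, and Tars changed least among the 12 genes called higher.

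Histidyl-tRNA synthetase (Hars, chromosome 18) went the other way. Hars had 66.5, 66.5 and 70.4 CPM in the MCKO libraries, against 104, 106 and 100.2 CPM in the control libraries (log2 fold change -0.61, SE 0.045, adjusted p = 4.32e-06), so that every MCKO library lay below every control library, by a fitted 1.52-fold. Hars lies head to head with Hars2, and their exons overlap on opposite strands. Hars2, the mitochondrial histidine enzyme, averaged 28.3 ± 0.889 CPM in MCKO hearts and 29.8 ± 1.004 CPM in control hearts (SD, n = 3 each) and was not called (log2 fold change -0.07, SE 0.055, adjusted p = 0.298).

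Phenylalanyl-tRNA synthetase is a tetramer of α and β subunits, and both of its genes were lower in MCKO hearts. Farsb, the β subunit, had 72.3, 67.1 and 69.7 CPM in the MCKO libraries, against 89.1, 88.0 and 89.4 CPM in the control libraries (log2 fold change -0.35, SE 0.045, adjusted p = 0.000131). Farsa, the α subunit, had 58.5, 53.3 and 60.5 CPM in the MCKO libraries, against 71.0, 68.5 and 65.6 CPM in the control libraries (log2 fold change -0.25, SE 0.058, adjusted p = 0.00467). In both subunit genes the groups did not overlap. Rars (arginine) had 115, 112 and 109 CPM in the MCKO libraries, against 141, 138 and 146 CPM in the control libraries (log2 fold change -0.34, SE 0.043, adjusted p = 0.000124), and Wars (tryptophan) averaged 76.1 ± 1.11 CPM in MCKO hearts and 95.4 ± 6.19 CPM in control hearts (SD, n = 3 each; log2 fold change -0.32, SE 0.054, adjusted p = 0.000677). Kars, whose gene also gives the mitochondrial lysyl-tRNA synthetase by alternative splicing, had the smallest called decrease among cytosolic genes, with 168, 163 and 169 CPM in the MCKO libraries, against 182, 182 and 185 CPM in the control libraries (log2 fold change -0.13, SE 0.038, adjusted p = 0.0129). Kars libraries of the 2 groups did not overlap, but its adjusted p in edgeR's test was 0.0752 without MCKO replicate 2.

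Vars and Qars were the 2 cytosolic genes not called. Vars (valine) averaged 194 ± 10.6 CPM in MCKO hearts and 178 ± 17.0 CPM in control hearts (SD, n = 3 each; log2 fold change 0.12, SE 0.071, adjusted p = 0.180); without control replicate 2 its adjusted p was 0.0364. Qars (glutamine) had 72.9, 58.3 and 70.2 CPM in the MCKO libraries, against 60.6, 56.5 and 76.1 CPM in the control libraries (log2 fold change 0.06, SE 0.13, adjusted p = 0.736). Its libraries overlapped widely, with a coefficient of variation of 11.6% in MCKO and 16.04% in control libraries, where the median cytosolic gene had 2.11% in MCKO and 3.27% in control libraries.

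**Figure D2:**
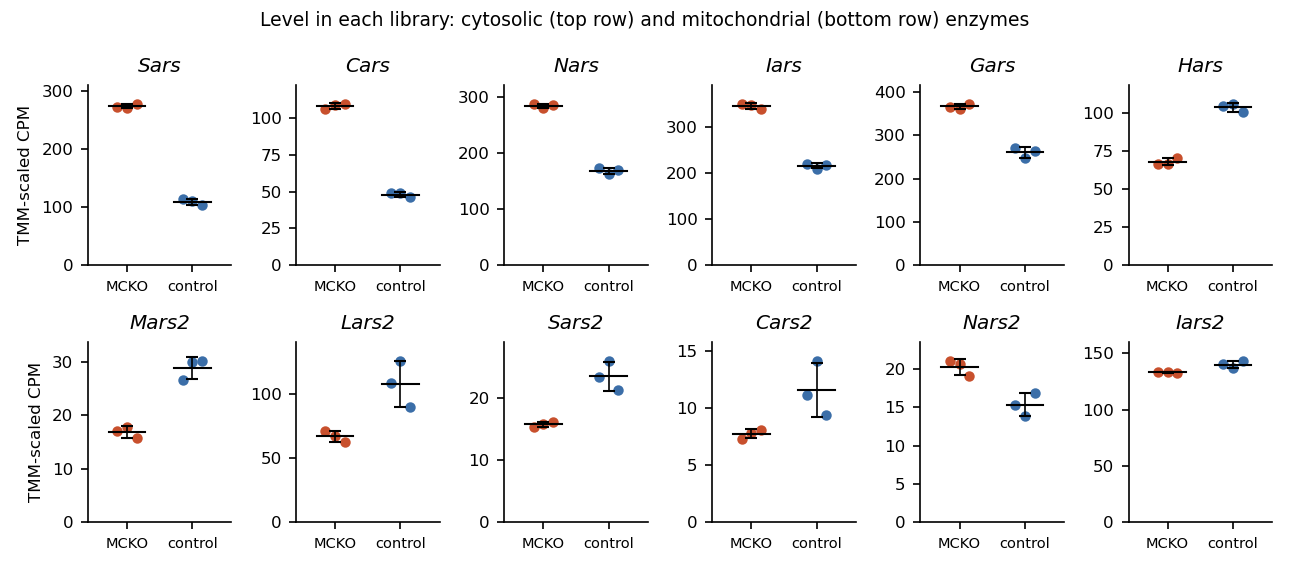
TMM-scaled CPM in each library (points, y axis from 0) for 6 cytosolic genes (top row) and 6 mitochondrial genes (bottom row); MCKO libraries stand left of control libraries, with the mean as a long line and the SD as bars. Sars lies at 272 to 279 CPM in MCKO and 104 to 114 CPM in control libraries, while the control libraries of Lars2 and Cars2 are widely spread.

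Among mitochondrial enzymes the lowest fold changes were those of Mars2, Lars2, Sars2 and Cars2. Mars2, the mitochondrial methionyl-tRNA synthetase (ENSMUSG00000046994, mm10 chromosome 1, 55237177 to 55248470), had 17.0, 17.8 and 15.7 CPM in the MCKO libraries, against 26.5, 30.0 and 30.1 CPM in the control libraries (log2 fold change -0.77, SE 0.075, adjusted p = 2.30e-05). Lars2, the leucine enzyme (chromosome 9, 123366927 to 123462666), had 71.5, 67.2 and 62.5 CPM in the MCKO libraries, against 109, 126 and 89.9 CPM in the control libraries (log2 fold change -0.68, SE 0.12, adjusted p = 0.00218). In both, every MCKO library lay below every control library, by a fitted 1.71-fold for Mars2 and 1.61-fold for Lars2. Sars2 (serine, chromosome 7, 28741992 to 28753871) had 15.4, 15.8 and 16.1 CPM in the MCKO libraries, against 23.4, 25.9 and 21.2 CPM in the control libraries (log2 fold change -0.57, SE 0.080, adjusted p = 0.000241). Cars2, which charges cysteine and is also known to make cysteine persulfides, had 7.33, 7.81 and 8.12 CPM in the MCKO libraries, against 11.2, 14.1 and 9.43 CPM in the control libraries (log2 fold change -0.57, SE 0.14, adjusted p = 0.00686). For Sars2 and Cars2 the groups did not overlap either, although the control libraries spread by 20.4% for Cars2 and 16.6% for Lars2, with control replicate 2 the highest and control replicate 3 the lowest in both.

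A further 5 mitochondrial genes were called lower by smaller amounts. Fars2 (phenylalanine) had 15.05, 13.2 and 14.7 CPM in the MCKO libraries, against 18.0, 19.8 and 17.3 CPM in the control libraries (log2 fold change -0.35, SE 0.080, adjusted p = 0.00419), and Ears2 (glutamic acid) averaged 19.7 ± 1.05 CPM in MCKO hearts and 24.8 ± 0.853 CPM in control hearts (SD, n = 3 each; log2 fold change -0.33, SE 0.064, adjusted p = 0.00161). Tars2 (threonine) averaged 34.1 ± 1.35 CPM in MCKO hearts and 42.2 ± 2.69 CPM in control hearts (SD, n = 3 each; log2 fold change -0.31, SE 0.062, adjusted p = 0.00223). In these 3 genes the groups did not overlap. Yars2, in which human variants cause a myopathy with lactic acidosis and sideroblastic anaemia, averaged 25.4 ± 0.588 CPM in MCKO hearts and 29.0 ± 1.23 CPM in control hearts (SD, n = 3 each; log2 fold change -0.19, SE 0.057, adjusted p = 0.0174). Rars2 (arginine) averaged 33.6 ± 0.906 CPM in MCKO hearts and 37.2 ± 0.449 CPM in control hearts (SD, n = 3 each; log2 fold change -0.15, SE 0.049, adjusted p = 0.0275). These calls depended on the processing: DESeq2 gave an adjusted p of 0.0501 for Yars2 and 0.0818 for Rars2, and leaving out MCKO replicate 1 or 2 ended both calls, as leaving out control replicate 1 did for Rars2.

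Nars2, the mitochondrial asparagine enzyme (ENSMUSG00000018995, chromosome 7, 96951505 to 97064758), was the exception, with 21.0, 20.5 and 19.04 CPM in the MCKO libraries, against 15.3, 13.8 and 16.9 CPM in the control libraries (log2 fold change 0.39, SE 0.084, adjusted p = 0.00301). Its lowest MCKO library exceeded its highest control library, and 3 of the 16 mitochondrial genes had a fold change above 0. Iars2, the mitochondrial isoleucine enzyme, had 133.1, 133.0 and 132.7 CPM in the MCKO libraries, against 140.1, 136.5 and 143.0 CPM in the control libraries (log2 fold change -0.07, SE 0.039, adjusted p = 0.132). All MCKO libraries of Iars2 lay below all control libraries, yet the difference did not pass the test. The remaining genes not called had overlapping groups. Aars2, the alanine enzyme in which human variants cause an infantile cardiomyopathy, had 26.9, 30.3 and 32.1 CPM in the MCKO libraries, against 37.0, 41.4 and 29.7 CPM in the control libraries (log2 fold change -0.27, SE 0.12, adjusted p = 0.0956), and without control replicate 3 its adjusted p was 0.00144. Vars2 averaged 34.1 ± 2.08 CPM in MCKO hearts and 36.9 ± 2.75 CPM in control hearts, Wars2 16.7 ± 0.743 CPM in MCKO hearts and 15.9 ± 0.701 CPM in control hearts and Pars2 12.3 ± 0.517 CPM in MCKO hearts and 11.4 ± 0.619 CPM in control hearts (SD, n = 3 each). Their log2 fold changes were -0.11 (adjusted p = 0.197), 0.06 (adjusted p = 0.454) and 0.11 (adjusted p = 0.281) for valine, tryptophan and proline by edgeR's test.

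Exons of 13 members, among them Cars, Yars, Farsb, Cars2, Ears2, Fars2, Iars2, Nars2 and Vars2, overlap exons of a gene on the opposite strand. Whether the counting used strand is not stated, so the uncertainty given for Mars1 holds for all 13. Without these 13, 8 of 14 cytosolic genes were higher (57.1%), 4 lower (28.6%) and 2 not called. Of 9 mitochondrial genes 0 were higher, 6 lower (66.7%) and 3 not called. Of all tested genes 29.3% were higher and 29.1% lower, so the cytosolic share lower lay near the background. The medians of the log2 fold change were then 0.27 for cytosolic and -0.27 for mitochondrial genes.

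Summed over the 20 genes, cytosolic synthetases held 3598, 3559 and 3643 CPM in the MCKO libraries, against 2882, 2784 and 2820 CPM in the control libraries. The ratio of the group means was 1.27. Summed over the 16 genes, mitochondrial synthetases held 509, 507 and 509.8 CPM in the MCKO libraries, against 608, 642 and 577 CPM in the control libraries, a ratio of 0.835. The 16 mitochondrial genes therefore made up 12.4, 12.5 and 12.3% of both sums in the MCKO libraries, against 17.4, 18.8 and 17.0% in the control libraries. The groups did not overlap in any of the 3 quantities, and each sum is weighted towards its most abundant genes. Gars and Kars, which also give mitochondrial enzymes, were counted in the cytosolic sum alone. Gars averaged 367 CPM in MCKO and 261 CPM in control hearts, and Kars 167 CPM in MCKO and 183 CPM in control hearts. These levels are large beside the mitochondrial sums, so the ratio of 0.835 and the shares depend on that assignment.

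**Figure D3:**
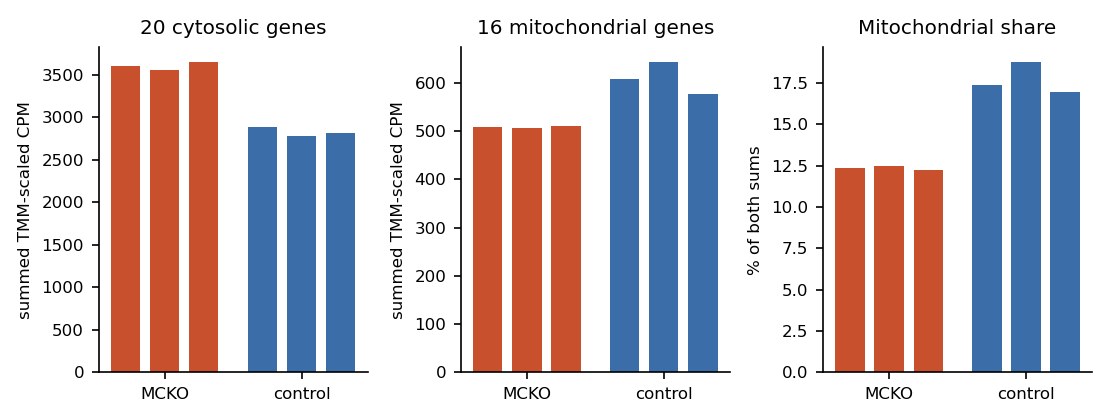
Summed TMM-scaled CPM of 20 cytosolic genes (left) and of 16 mitochondrial genes (middle), and the mitochondrial percentage of both sums (right), with a bar for each library and MCKO left of control. The mitochondrial share is 12.3 to 12.5% in MCKO and 17.0 to 18.8% in control libraries.

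The cytosolic and mitochondrial enzymes of the same amino acid can be set against each other within a library, which removes the library total from the comparison. There were 17 such pairs for 16 amino acids, with Eprs used for glutamic acid and proline, and Fars2 set against each phenylalanine subunit. The log2 of the count ratio, cytosolic over mitochondrial, was higher in MCKO libraries without overlap in 12 pairs, lower without overlap in 3, and overlapping in 2. Groups failed to overlap for 64.7% of all tested single genes. The share among ratios of other gene pairs was not computed, so these counts have no matching background. The median difference between MCKO and control means was 0.53. The ratio depends on transcript length, so that its difference between groups is read here and not its level.

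For serine (Sars over Sars2) the log2 ratio was 4.15, 4.10 and 4.11 in the MCKO libraries, against 2.28, 2.09 and 2.30 in the control libraries, a difference of 1.90 (SE 0.069). For cysteine (Cars over Cars2) it was 3.85, 3.803 and 3.75 in the MCKO libraries, against 2.13, 1.79 and 2.29 in the control libraries, a difference of 1.73 (SE 0.15). These were the widest shifts among the 17 pairs, with no overlap between groups. Leucine (Lars over Lars2) had 1.42, 1.47 and 1.64 in the MCKO libraries, against 0.38, 0.06 and 0.64 in the control libraries, a difference of 1.15 (SE 0.18), and methionine (Mars1 over Mars2) had 3.15, 3.08 and 3.30 in the MCKO libraries, against 2.14, 2.002 and 1.92 in the control libraries, a difference of 1.15 (SE 0.091). Isoleucine followed with 0.75 (SE 0.018), although Iars2 was not called.

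Smaller shifts towards the cytosolic enzyme were those of glutamic acid at 0.67, alanine at 0.62 (SE 0.13), tyrosine at 0.61 (SE 0.05), threonine at 0.53 (SE 0.061), asparagine at 0.36 (SE 0.082), valine at 0.24 (SE 0.031) and proline at 0.23. The asparagine shift was small although Nars was among the 4 genes that rose most, with Nars2 higher as well. Histidine, tryptophan and arginine shifted towards the mitochondrial enzyme, by -0.53 (SE 0.039), -0.39 (SE 0.048) and -0.19 (SE 0.048). Both phenylalanine pairs overlapped, with differences of 0.11 (SE 0.061) for Farsa and 0.01 (SE 0.071) for Farsb over Fars2. An exact two-sided permutation test gave p = 0.1 for each of the 15 pairs without overlap, the smallest value that 3 against 3 libraries allow, and p = 0.2 and p = 1.0 for the pairs of Farsa and Farsb; no pair could pass 0.05 by this test.

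**Figure D4:**
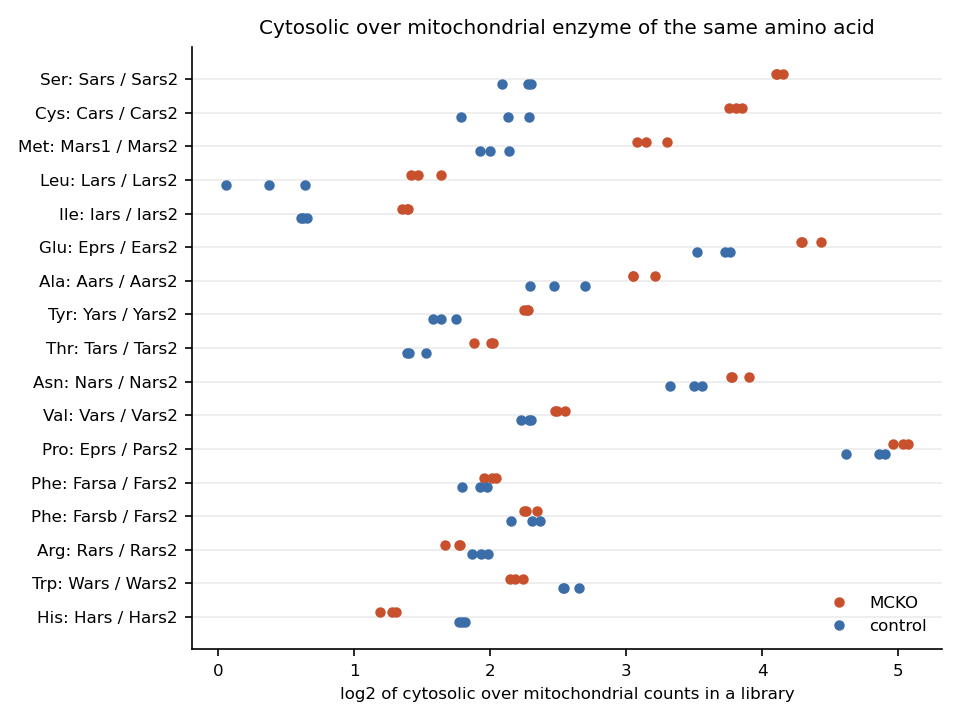
Log2 ratio of cytosolic over mitochondrial counts (x axis) in each library for 17 pairs of enzymes for the same amino acid, with MCKO points above control points in each pair and pairs sorted by their difference. Serine and cysteine at the top differ by 1.90 and 1.73, and histidine at the bottom by -0.53.

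Levels of different genes were compared per kilobase of the APPRIS principal transcript. The median cytosolic gene stood at 47.4 CPM per kilobase in MCKO hearts and 43.4 in control hearts, and the median mitochondrial gene at 8.46 in MCKO and 9.84 in control hearts. Gars had the highest level in both groups, at 154 ± 2.33 in MCKO hearts and 109.6 ± 5.02 in control hearts (CPM per kilobase, SD, n = 3 each). Nars was the next in MCKO hearts, at 104 ± 1.31 in MCKO hearts and 61.3 ± 1.84 in control hearts on the same scale, where it ranked 5 in control hearts. Kars, Eprs, Iars and Sars followed in MCKO hearts, and the neighbours Kars and Eprs, and Iars and Sars, differed by less than their summed SDs.

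Sars stood at 76.9 ± 1.02 in MCKO hearts and 30.6 ± 1.31 in control hearts (CPM per kilobase, SD, n = 3 each), which placed it at rank 6 of 36 in MCKO and rank 17 in control hearts. Cars, at 33.6 ± 0.633 in MCKO hearts and 14.9 ± 0.505 in control hearts, was at rank 17 in MCKO and rank 25 in control hearts, where it lay below 5 mitochondrial genes. Hars, at 34.1 ± 1.11 in MCKO hearts and 52.0 ± 1.42 in control hearts, was at rank 16 in MCKO and rank 8 in control hearts. In MCKO hearts the lowest cytosolic gene, Qars, stood at 24.0 and the highest mitochondrial gene, Iars2, at 24.3 CPM per kilobase, a difference within the spread of Qars. Mars2 was lowest in both groups, at 1.49 ± 0.0940 in MCKO hearts and 2.56 ± 0.181 in control hearts; its principal transcript is 11294 bases long, and counts from shorter forms would place it too low.

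Cytosolic genes of each direction were found inside and outside the multisynthetase complex and in both enzyme classes, and differences between these subgroups were not tested. The multisynthetase complex binds 8 of the enzymes (Eprs, Lars, Iars, Mars1, Qars, Rars, Kars and Dars). Of these, 5 were higher (62.5%), 2 lower (25.0%) and 1 not called, with a median log2 fold change of 0.33. Of the 12 outside it, 7 were higher (58.3%), 4 lower (33.3%) and 1 not called, with a median of 0.29. Of all tested genes 29.3% were higher and 29.1% lower, so both shares called lower lay near the background. Class I and class II synthetases differ in the fold of their catalytic domain. Of 10 cytosolic class I genes, 6 were higher and 2 lower, and of 10 cytosolic class II genes, 6 were higher and 4 lower. Of 9 mitochondrial class I genes, 0 were higher and 6 lower, and of 7 mitochondrial class II genes, 1 was higher and 3 lower.

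The 3 scaffold proteins of the complex moved little. Aimp1 had 71.2, 69.0 and 71.2 CPM in the MCKO libraries, against 66.1, 61.5 and 65.1 CPM in the control libraries (log2 fold change 0.13, SE 0.046, adjusted p = 0.0330), and its groups did not overlap. Aimp2 and Eef1e1 were not called, with log2 fold changes of -0.02 (adjusted p = 0.782) and -0.11 (adjusted p = 0.473) in edgeR's test. Tarsl2, a second threonyl-tRNA synthetase and not among the 36, had 18.7, 18.9 and 18.2 CPM in the MCKO libraries, against 26.2, 22.4 and 24.1 CPM in the control libraries (log2 fold change -0.38, SE 0.070, adjusted p = 0.00119), and its groups did not overlap.

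Promoter sequences of 27 of the 36 genes, 13 cytosolic and 14 mitochondrial, were in the RefSeq table used here. It uses build GRCm38.p6, and each window runs from 250 bases before to 50 bases after the start annotated there. That start can differ from the gene coordinates given elsewhere in this text, so matches and distances hold for these windows alone. The cytosolic genes without a window were Cars, Hars, Lars, Nars, Rars, Vars and Wars. The core of the C/EBP-ATF response element bound by ATF4 heterodimers, searched as TGATGNAA on both strands, was found in 5 of the 13 cytosolic windows (Aars, Gars, Iars, Tars and Yars) and in 0 of the 14 mitochondrial windows. Of all 27025 genes with a window, 4.51% held it. All 5 genes were called higher in MCKO hearts, as were 12 of the 20 cytosolic genes (60.0%) and 29.3% of all tested genes. Iars and Yars match only past the start. Whether the element has a part in these calls was not tested. Among cytosolic genes with a window but no match, Sars, Dars, Eprs and Mars1 were also called higher. Farsa, Farsb and Kars, likewise without a match, were called lower, and Qars was not called. The matched bases are in capitals below, in 40-base stretches read 5′ to 3′ along the gene's strand, shown because they are the letters shared by these 5 genes. A match on the other strand reads TTGCATCA or TTTCATCA along the gene.

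Aars, chr8:111033714-111033753, plus strand, match from 112 bases before the start: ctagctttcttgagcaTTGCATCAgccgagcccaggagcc
Aars, chr8:111033835-111033874, plus strand, match from 9 bases past the start: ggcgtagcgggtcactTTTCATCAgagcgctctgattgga
Gars, chr6:55037955-55037994, plus strand, match from 30 bases before the start: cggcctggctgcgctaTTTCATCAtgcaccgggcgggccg
Iars, chr13:49682121-49682160, plus strand, match from 7 bases past the start: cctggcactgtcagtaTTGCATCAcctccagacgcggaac
Tars, chr15:11399650-11399689, minus strand, match from 15 bases before the start: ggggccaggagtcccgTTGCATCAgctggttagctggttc
Yars, chr4:129189890-129189929, plus strand, match from 3 bases past the start: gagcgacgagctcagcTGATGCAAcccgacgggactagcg

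Aars is the member with more than 1 match. The shared letters of the Iars and Tars stretches and of the upstream Aars stretch are TTGCATCA, those of Gars and of the downstream Aars stretch are TTTCATCA, and Yars holds TGATGCAA, which is TTGCATCA read on the other strand. The Sars window lies wholly upstream of the coordinates given for that gene above (108424865 to 108445209, minus strand). The lack of a match in Sars therefore depends on the start used. The window of Sars, the gene with the highest fold change, is given whole for comparison and holds no match to TGATGNAA:

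Sars, chr3:108445210-108445509, minus strand: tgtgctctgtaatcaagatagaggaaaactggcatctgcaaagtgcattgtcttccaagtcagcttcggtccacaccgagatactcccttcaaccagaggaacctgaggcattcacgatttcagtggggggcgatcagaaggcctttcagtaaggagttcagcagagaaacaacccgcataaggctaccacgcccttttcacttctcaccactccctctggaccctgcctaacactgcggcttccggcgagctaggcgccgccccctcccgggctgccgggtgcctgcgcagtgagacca

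The E-box CACGTG was found in 4 of the 13 cytosolic windows (Aars, Farsb, Iars and Tars) and in 1 of the 14 mitochondrial windows (Ears2), against 8.09% of all genes. Aars, Iars and Tars thus held both elements, at positions that do not overlap, and Farsb and Ears2, which held the E-box alone, were both called lower. The core of the NRF1 motif, CGCATGCG, known from promoters of genes for mitochondrial proteins, was found in 0 cytosolic windows and in those of Vars2 and Wars2, against 2.07% of all genes. Neither Vars2 nor Wars2 was called. A match describes the letters and not binding.

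Genes of the amino acid response were all higher in MCKO hearts, and 31 of 31 were called higher, against 29.3% of all tested genes. Of these, 29 were at least 1.5-fold higher, where 13.8% of all tested genes met that rule. Their median log2 fold change was 1.66. This list, which holds known ATF4 targets and amino acid transporters, was chosen with earlier results of these data in view, so its direction is not independent evidence. Atf4 had 321, 325 and 329 CPM in the MCKO libraries, against 139, 137 and 131 CPM in the control libraries (log2 fold change 1.26, SE 0.040, adjusted p = 1.93e-08). Asns, the asparagine synthetase, had 175, 169 and 176 CPM in the MCKO libraries, against 47.2, 44.1 and 45.7 CPM in the control libraries (log2 fold change 1.92, SE 0.045, adjusted p = 3.33e-09). Trib3, a pseudokinase induced by ATF4 and CHOP, had 73.2, 75.4 and 80.3 CPM in the MCKO libraries, against 2.21, 2.25 and 2.001 CPM in the control libraries. Beside a log2 fold change of 5.15 for Trib3 and 5.70 for Chac1, a glutathione-degrading enzyme, the 1.33 of Sars was modest, and the 12 cytosolic genes called higher spanned 0.22 to 1.33. Stc2, a secreted glycoprotein, and Vldlr, a lipoprotein receptor, changed by 3.76 and 2.96 on the same log2 scale.

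The mitochondrial translation machinery beyond the synthetases was lower in more genes than it was higher: of 28 genes, 2 were higher (7.14%, against 29.3% of all tested genes), 16 lower (57.1%, against 29.1%) and 10 not called, with a median log2 fold change of -0.23, beside -0.23 for the 16 mitochondrial synthetases. Gfm1 and Gfm2, elongation and recycling factors of the mitochondrial ribosome, had log2 fold changes of -0.74 (adjusted p = 5.51e-07) and -0.30 (adjusted p = 0.000489) in edgeR's test. Qrsl1, a subunit of the amidotransferase that makes mitochondrial glutaminyl-tRNA, a charge for which mammals have no mitochondrial synthetase, had 15.2, 15.4 and 15.9 CPM in the MCKO libraries, against 27.97, 28.8 and 31.3 CPM in the control libraries (log2 fold change -0.92, SE 0.065, adjusted p = 2.78e-06). C1qbp, a mitochondrial matrix protein, had a log2 fold change of -0.43 (adjusted p = 2.96e-05). The share of counts from mitochondrial DNA, given above, was also lower in MCKO libraries, and its part in these values was not tested.

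Of 24 tested genes that process or handle tRNA, 4 were higher (16.7%), 9 lower (37.5%) and 11 not called, with a median log2 fold change of -0.07. The share called, 54.2%, was near the 58.4% of all tested genes, of which 29.3% were higher and 29.1% lower. Elac2, which trims the 3′ end of tRNA, Tsen15, a subunit of the splicing endonuclease, and Nsun2, a tRNA methyltransferase, had log2 fold changes of -0.63, -0.49 and 0.32. The tRNA export receptor Xpot had 23, 0 and 23 counts in the MCKO libraries (at most 0.989 CPM), no count in the control libraries, and was not tested. Whether the way counts were assigned lowers its values was not tested either, so they do not show that it is absent. Of 9 cytosolic elongation and termination factors, 3 were higher (33.3%, near the 29.3% of all tested genes) and 5 lower (55.6%, against 29.1%). Their median log2 fold change was -0.29. Their summed level was higher, at 16700 to 17454 CPM in MCKO and 12842 to 13468 CPM in control libraries. The 2 most abundant genes, Eef1a1 and Eef2, were both called higher, Eef2 with a log2 fold change of 0.78. Eef1a1, which brings charged tRNA to the ribosome, had a log2 fold change of 0.40 (adjusted p = 1.24e-05), while Gspt1, Eif5a and Abce1, which act in termination, elongation and ribosome recycling, had -0.43, -0.42 and -0.53.

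**Figure D5:**
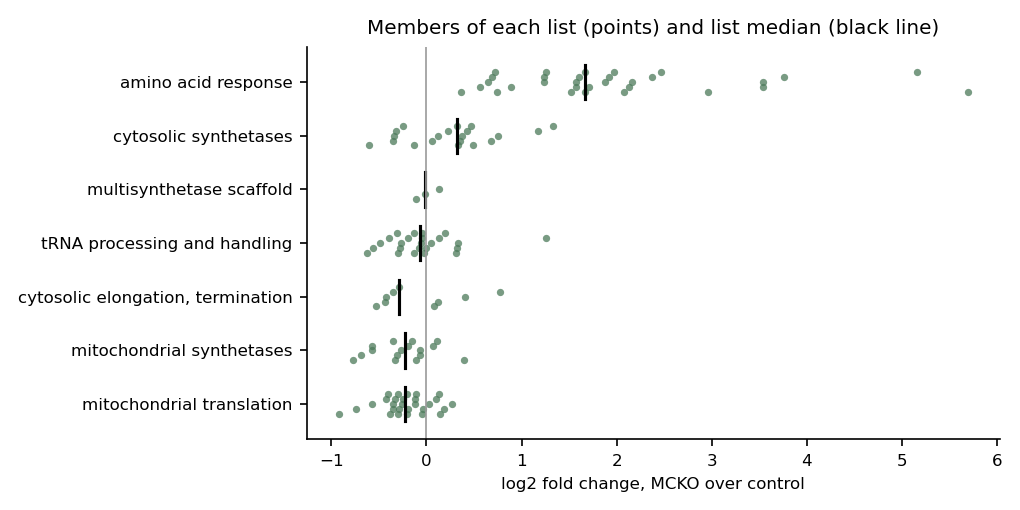
Log2 fold change, MCKO over control (x axis), of each tested gene (points) in 7 lists, with the list median as a black line. The medians are 1.66 for the amino acid response, 0.33 for cytosolic synthetases, and -0.23 for both mitochondrial synthetases and mitochondrial translation.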

How the data were processed

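RNA from whole hearts at embryonic day 9.5 was sequenced with a stranded mRNA kit, per the labels' protocols, in 3 MCKO and 3 control libraries. The deposited table holds estimated counts per Ensembl gene, which the authors gave as whole numbers; per the submitters' processing notes kallisto and mm10 were used. The sources used here name neither the transcript set nor the strand setting. Of 30323 gene IDs, 29857 matched a symbol in GENCODE M21. Genes were filtered with edgeR's filterByExpr (14697 kept), scaled by TMM and tested with edgeR's quasi-likelihood test (edgeR 4.0.16, R 4.3.3) with Benjamini-Hochberg adjustment over all tested genes; the common biological coefficient of variation was 7.31%. Pair ratios used counts plus 0.5 and an exact two-sided permutation test. Alternatives were RLE factors, library totals only, no filter, a minimum of 50 counts in 3 libraries, DESeq2 1.42.0, a replicate block, each library left out, promoter windows without bases past the start and, added after the data were seen, leaving out members with overlapping exons and, for marker sums, the most abundant gene. The members and lists were chosen with earlier results of these data known. Named by rule are every member, Cdc42, the scaffold and other synthetase genes, Atf4, Ddit3, Trib3 and Asns. The rule adds up to 4 called genes with the smallest p of each further list. Marker lists are given as sums and counts, and Eef2 and single marker genes are named beyond this rule. Some genes that this rule names are not reported here. Sequences are from RefSeq's GRCm38.p6.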

Additional observations from a re-analysis of the deposited data

How the results depend on the processing

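Every member kept its direction except Qars, whose log2 fold change was -0.0066 with library totals only and ranged from -0.030 to 0.20 with a library left out, and the pair Farsb over Fars2, whose difference ranged from -0.053 to 0.056. With library totals only, which moved the median over all genes by -0.062, the cytosolic median was 0.26, the mitochondrial median -0.29, and 3 mitochondrial genes in place of 6 were not called (Aars2, Iars2 and Vars2 were gained as lower). Leaving out each library gave a cytosolic median of 0.28 to 0.35, a mitochondrial median of -0.26 to -0.17 and 1 to 3 cytosolic genes not called, with the smallest cytosolic median and the mitochondrial median nearest to 0 without control replicate 2. Without members that have overlapping exons the cytosolic median was 0.27, and without Gars, Kars and Qars it was 0.33. In the 250 bases before the start alone, 3 cytosolic promoters held TGATGNAA and 0 mitochondrial promoters held CACGTG. Libraries with the same replicate number did not deviate together (correlations -0.043, 0.036 and -0.20). Deviations from means of 3 libraries cannot show whether same-numbered libraries share a litter or batch, which is not stated. With a replicate block 7765 genes were called in place of 8587, 12 cytosolic genes higher and 5 lower, and 1 mitochondrial gene higher and 8 lower; the calls of Kars (adjusted p = 0.0512) and Rars2 (adjusted p = 0.0831) were lost. Rars2 was also lost with no filter (adjusted p = 0.0619). The causes of these changes were not tested. Cars2, the member with the lowest mean CPM in MCKO hearts, also had the widest spread among control libraries, and with 3 libraries a group small differences cannot be told from the spread.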
